A study of Mus musculus with 14 samples.

Results

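Expression of 10 imprinted genes of fetal growth other than Mest was examined in mouse epididymal fat: Dlk1, Igf2, H19, Gnas, Grb10, Cdkn1c, Plagl1, Peg3, Ndn and Sgce, 10 of the 12394 genes named on the array. Every probe set that the platform annotation ties to these genes was taken, which gave 26 of the 22690 probe sets on the array. A probe set is a group of short probes against a transcript. Of the 26, 18 passed a filter on dim signal and were tested, and the other 8 are given below as levels.

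The UC mice (n = 5) had a 50% food restriction in utero and were suckled under ad libitum feeding. The UU mice (n = 4) had that restriction in utero and again throughout suckling. The CC mice (n = 5) had ad libitum feeding in both periods. All 14 animals were ICR mice, an outbred strain, labelled male and 3 weeks old, and each gave RNA from its epididymal fat pad, a white fat depot beside the epididymis, to a single-channel Affymetrix array. Litters are not given in the labels, and each mouse was counted as independent of the others in every p-value. The number of arrays limits the precision.

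Imprinted genes are transcribed mainly from the copy inherited from one particular parent, and many of them set the growth of the fetus and placenta. Paternally expressed members such as Igf2, Dlk1, Peg3 and Plagl1 tend to promote growth or hold cells in an undifferentiated state, whereas maternally expressed members such as H19, Cdkn1c and Grb10 tend to restrain growth. Several are known to decline after birth in most tissues, and Dlk1 is widely used as a marker of preadipocytes, the precursors of fat cells.

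None of the 18 tested probe sets passed the threshold of an adjusted p under 0.05 in any comparison (limma, Benjamini-Hochberg over 13576 probe sets), which 0% of all tested probe sets passed for UC to CC, 0% for UU to CC and 0.442% for UC to UU. The largest differences were between UU and CC. H19 and Dlk1 signals were higher in every UU array than in every CC array, while signals of Sgce and of the brightest Gnas probe set were lower in every UU array than in every CC array. For these 4 probe sets the UC arrays overlapped both of the other groups. Of all tested probe sets, 7.77% had separate UU and CC ranges. The separation of H19 was narrow, with the lowest UU array at 5978 and the highest CC array at 5976. Without UC5 and CC2, whose Xist signal is given below, the UU to CC differences on the log2 scale were 1.59 for H19, 1.08 for Dlk1, -0.43 for Gnas and -0.48 for Sgce.

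Adipoq, which encodes the fat cell hormone adiponectin, averaged 71999 in UC, 39696.5 in UU and 67132 in CC. The arrays also carried other tissue to differing degrees. Gpx5, an epididymal peroxidase, was under 2000 in UC2, UC5, CC2 and CC4 and at least 5711 in the other 10 arrays, which include all 4 UU arrays. Xist, the RNA of the inactive X chromosome, had signals of 9137 in UC5 and 14479 in CC2, against at most 80.1 elsewhere, with Y-linked Eif2s3y at 7.9 and 58.6 in the same arrays, which goes against their label as male. Skeletal muscle markers (mean log2 level of the 7 tested of 16) were at 11.12 in CC2 and 11.25 in CC5 and at 8.71 to 9.56 in the other arrays. The log2 ratio of 3′ to 5′ control probe sets, a sign of RNA quality, was 1.63 in UC1, 1.59 in UC4 and 2.1 in UU3, against 0.4 to 1.08 in the other 11 arrays.

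Dlk1 encodes a transmembrane and secreted Notch-like protein that inhibits adipocyte differentiation. It lies on chromosome 12 (109452485 to 109463336, GRCm38.p6) and was read by 1 probe set. Its signals were 3804, 926, 2567, 704 and 1924 in the UC arrays, 4019, 2482, 2288 and 4277 in the UU arrays, and 1827, 1544, 1083, 1316 and 1808 in the CC arrays. All 4 UU arrays lay above all 5 CC arrays, and the UC arrays ran from below the lowest CC array to near the highest UU array. Group means were 1985 ± 1266 in UC, 3266.5 ± 1026 in UU and 1516 ± 320.2 in CC (SD, n = 5, 4 and 5).

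The log2 difference of Dlk1 between UU and CC was 1.06 ± 0.39 (SE), or 2.09-fold, with an unadjusted p of 0.0157 and an adjusted p of 0.219 in limma. Differences and folds are on the scale of log2(signal + 32), which understates changes of dim probe sets. Between UC and UU the Dlk1 difference was -0.91 ± 0.39 (adjusted p = 0.273, limma), and between UC and CC it was 0.15 ± 0.37 (adjusted p = 0.916). The UC to CC difference was -0.14 without UC replicate 1 and 0.45 without UC replicate 4, so its sign turned without the first of these arrays. Without the 4 arrays low in epididymal markers, the UU to CC difference was 1.02.

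The promoter window of Dlk1 in RefSeq (250 bases before to 50 after the start, GRCm38.p6, chr12:109452573-109452872, plus strand) is shown because many imprinted loci are controlled by methylation at CG pairs, which are in capitals.
Dlk1: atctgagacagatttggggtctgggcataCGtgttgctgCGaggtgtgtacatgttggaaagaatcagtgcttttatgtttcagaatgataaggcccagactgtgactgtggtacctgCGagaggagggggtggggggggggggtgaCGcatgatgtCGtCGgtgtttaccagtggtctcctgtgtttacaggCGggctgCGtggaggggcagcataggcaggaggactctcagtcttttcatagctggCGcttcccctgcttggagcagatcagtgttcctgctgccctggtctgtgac
It holds 9 CG pairs, against a median of 7 over 32851 RefSeq promoter windows of that length. Methylation was not measured on these arrays.

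H19 is a long noncoding RNA transcribed from the maternal copy beside Igf2 on chromosome 7 (142575530 to 142578146, in the same build as all positions here), and it hosts the microRNA gene Mir675. Its probe set is annotated to H19 and Mir675 together, so the array cannot separate them, and it does not read the mature microRNA. The 2 mature arms are given here to show which product lies under that annotation, at chr7:142577112-142577133 and chr7:142577078-142577099 on the minus strand, with the seed (bases 2 to 8) in capitals.
mmu-miR-675-5p: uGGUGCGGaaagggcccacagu
mmu-miR-675-3p: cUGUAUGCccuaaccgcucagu
Both arms lie inside H19 in RefSeq (GRCm38.p6), and their seeds are not alike.

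Signals of the H19/Mir675 probe set were 7381, 2400.0, 7323, 2625 and 4037 in UC, 10178.5, 9374, 11268 and 5978 in UU, and 2596, 5976, 3107, 1888 and 4913 in CC. The lowest UU array, at 5978, was only just above the highest CC array, at 5976, and the other 3 UU arrays stood well above every UC and CC array. Means were 4753 ± 2454 in UC, 9200 ± 2284 in UU and 3696 ± 1696 in CC (SD).

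H19 gave the largest member difference between UU and CC, 1.39 ± 0.38 on the log2 scale or 2.62-fold, with an unadjusted p of 0.00222 and an adjusted p of 0.141 (limma). Between UC and UU it was -1.07 ± 0.38 (adjusted p = 0.203, limma), and between UC and CC it was 0.32 ± 0.36 (adjusted p = 0.792). The 2 highest CC signals came from CC2 and CC5, the arrays high in skeletal muscle markers. Without them, a fit chosen after seeing the data, the UU to CC difference was 1.84 ± 0.39 (adjusted p = 0.19, limma). Over all alternatives that difference ran from 1.18 to 1.84, and its adjusted p from 0.0924 to 0.393. It was 1.18 without CC replicate 4 and 1.23 once the 3′/5′ ratio entered the model. Leaving out the 4 arrays low in epididymal markers gave 1.38.

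Igf2 encodes insulin-like growth factor 2, a fetal growth factor expressed from the paternal copy (chromosome 7, 142650768 to 142666816). Its brighter probe set, 1448152_at, had signals of 4554, 2419.9, 3481, 2957 and 1763 in UC, 2605, 3549, 4814 and 2879 in UU, and 1838, 1882, 2028.5, 2822 and 2129 in CC. In CC, 4 of the 5 arrays lay below every UU array, and CC4 at 2822 lay above the lowest UU array. Of the UC arrays, 3 exceeded every CC array and UC5 had the lowest signal of all 14.

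Means were 3035 ± 1062 in UC, 3462 ± 985 in UU and 2139.9 ± 398.8 in CC (SD). The Igf2 difference was 0.66 ± 0.25 between UU and CC (unadjusted p = 0.0172, adjusted p = 0.224, limma) and 0.44 ± 0.23 between UC and CC (adjusted p = 0.574). It was -0.22 ± 0.25 between UC and UU (adjusted p = 0.683). Without the 4 arrays low in epididymal markers, the UC to CC difference was 0.84 ± 0.24 and the UU to CC difference 0.75 ± 0.22.

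The 3 arrays of high 3′/5′ ratio had Igf2 signals of 2957 to 4814, against 1763 to 3549 in the other 11 arrays. With that ratio as a covariate, the UU to CC difference was 0.45 ± 0.24 and the UC to CC difference 0.20 ± 0.24. The second Igf2 probe set, 1415931_at, read only 65.9 to 266.7 over all arrays and fell under the filter, and averaging both probe sets gave a UU to CC difference of 0.24.

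RefSeq gives 4 promoter windows for Igf2, with 2 to 24 CG pairs. The one richest in CG (GRCm38.p6, chr7:142658755-142659054, minus strand) is printed with its CG pairs in capitals, to set beside the Dlk1 window.
Igf2: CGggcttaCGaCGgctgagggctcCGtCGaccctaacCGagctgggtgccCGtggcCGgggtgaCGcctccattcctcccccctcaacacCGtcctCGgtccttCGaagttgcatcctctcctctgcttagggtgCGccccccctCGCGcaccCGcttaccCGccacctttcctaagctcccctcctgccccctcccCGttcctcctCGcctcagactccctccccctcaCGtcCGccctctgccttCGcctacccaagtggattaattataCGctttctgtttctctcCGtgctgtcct
The arrays do not tell which of the 4 start sites the Igf2 transcripts used.

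**Figure D1:**
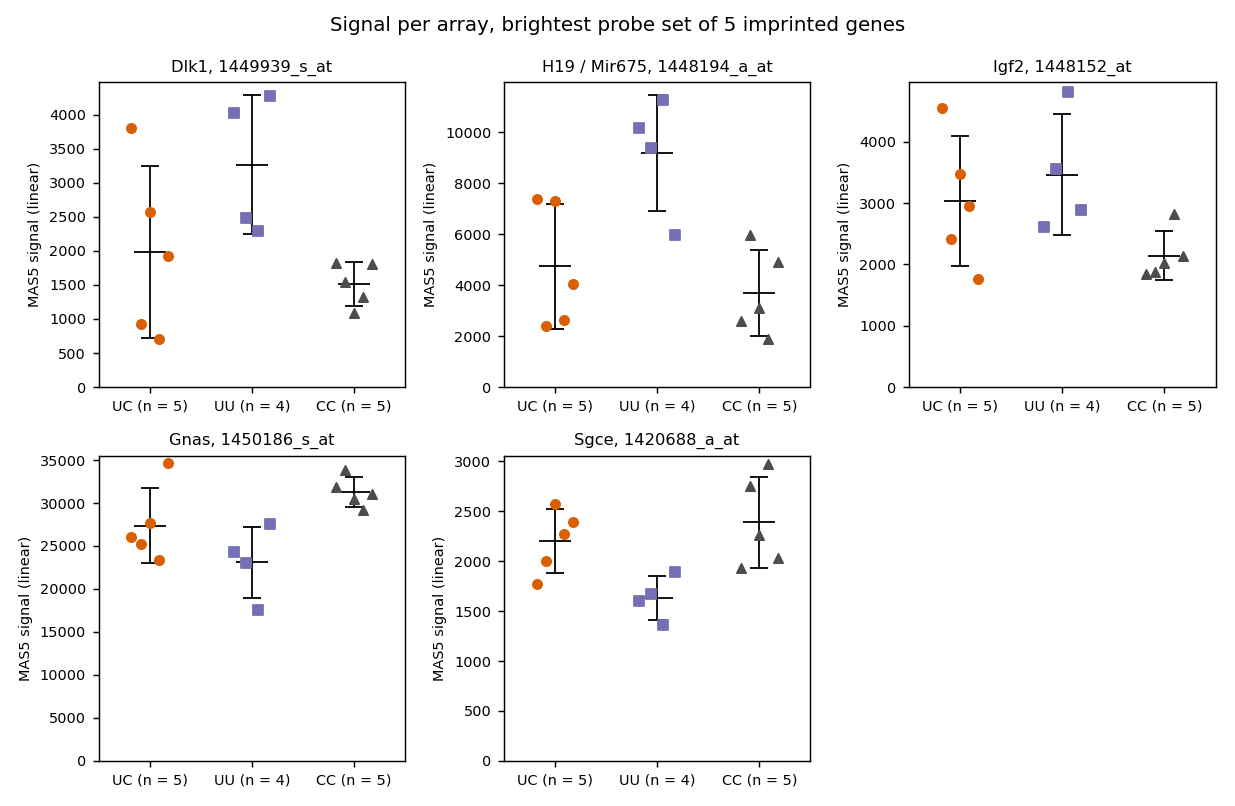
Signal (linear MAS5 scale) of the brightest probe set of Dlk1, H19/Mir675, Igf2, Gnas and Sgce in each array, with UC, UU and CC side by side. Points are arrays and bars are the mean ± SD; for Dlk1 and H19 the 4 UU points lie above all 5 CC points, and for Gnas and Sgce they lie below them.

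Among the signalling proteins, Gnas encodes the stimulatory G protein alpha subunit that couples hormone receptors to cyclic AMP, together with imprinted alternative products of the same locus (chromosome 2, 174284320 to 174346744). Its brightest probe set, 1450186_s_at, had signals of 25994, 25276.5, 27654, 23323 and 34609 in UC, 24257, 23006, 17546 and 27525 in UU, and 31812, 33898, 30414, 29181 and 31108.5 in CC. Every UU array was below every CC array. Of the UC arrays, 4 were also below every CC array, and UC5 was the highest of all 14.

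The Gnas difference was -0.45 ± 0.16 between UU and CC (0.729-fold, unadjusted p = 0.0111, adjusted p = 0.196, limma). It was -0.20 ± 0.15 between UC and CC (adjusted p = 0.666) and 0.25 ± 0.16 between UC and UU (adjusted p = 0.438). The lowest signal, 17546, was that of UU3, whose 3′/5′ ratio was the highest, and with that ratio as a covariate the UU to CC difference was -0.32 ± 0.14.

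The other 3 Gnas probe sets fell under the filter. Of these, 1453413_at read 237.5 to 841.8, and the other 2 read at most 142.5 in any array. One of these 2, 1427789_s_at, read 17.1, 15.0, 21.5, 23.8 and 25.9 in UC. It read 96.1, 32.7, 57.5 and 47.5 in UU, and 32.2, 22.4, 31.5, 49.4 and 23.3 in CC. The mean signal of this probe set was 35.4, close to the 32 added before the logarithm, so its differences say little about Gnas. Of all probe sets, 2.1% had a mean signal at or below its own, and in a fit with no filter its UC to UU difference was -0.74 ± 0.26 (adjusted p = 0.251, limma). In that fit its UU to CC difference was 0.47 ± 0.26 and that of 1453413_at was 0.20 ± 0.31, both opposite in sign to the brightest probe set. That of 1421740_at was -0.55 ± 0.42, of the same sign as the brightest. Averaging the 4 Gnas probe sets gave a UU to CC difference of -0.08.

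Of the 4 RefSeq promoter windows of Gnas, the one richest in CG (GRCm38.p6, chr2:174329756-174330055, plus strand) is printed because the brightest Gnas probe set opposed Igf2 across arrays, as described below.
Gnas: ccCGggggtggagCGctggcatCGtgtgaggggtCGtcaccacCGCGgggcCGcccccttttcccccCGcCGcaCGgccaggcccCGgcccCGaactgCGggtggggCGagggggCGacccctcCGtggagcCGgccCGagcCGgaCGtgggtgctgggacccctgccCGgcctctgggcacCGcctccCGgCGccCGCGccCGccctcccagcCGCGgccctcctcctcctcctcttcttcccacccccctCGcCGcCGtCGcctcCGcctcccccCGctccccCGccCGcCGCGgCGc
It holds 40 CG pairs, more than 96.1% of all promoter windows. The letters GGGCGG or their complement, a GC box, occur in 7 of 14 windows of 7 members, against 35.7% of all windows. The letters TATAAA or their complement occur in 3 of 14, all of Gnas, against 13.6% of all windows. The Gnas windows that start at 174327499 and 174327518 overlap and hold the same site, so these windows are not independent.

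Grb10 encodes an adaptor that binds the insulin and IGF1 receptors and dampens their signal (chromosome 11, 11930499 to 12037428). Its brightest probe set, 1425458_a_at, read 7149.6 to 10782 in UC, 7462 to 8535 in UU and 5813 to 12611 in CC, so the 3 ranges overlapped. Its differences were 0.06 ± 0.18 between UC and CC, -0.02 ± 0.20 between UU and CC and 0.08 ± 0.20 between UC and UU, each with an adjusted p of at least 0.863 (limma).

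A dimmer Grb10 probe set, 1430164_a_at, read 634.3, 528.3, 675.8, 713.5 and 932.6 in UC, 1454, 807.6, 823.3 and 1168 in UU, and 578.5, 935.5, 717.7, 1165 and 801.8 in CC. All but UC5 among the UC arrays lay below every UU array, while CC overlapped both groups. Its UC to UU difference was -0.57 ± 0.24 (unadjusted p = 0.0287, adjusted p = 0.257, limma), unlike the brighter probe set. The dimmest Grb10 probe set, 1425457_a_at, read 56.4 to 638.6 and fell under the filter.

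Sgce encodes epsilon-sarcoglycan, a membrane glycoprotein expressed from the paternal copy next to Peg10 (chromosome 6, 4674350 to 4747204). Its signals were 1774, 1999, 2576, 2274 and 2391 in UC, 1600.2, 1674, 1363 and 1892 in UU, and 1928, 2749.6, 2262, 2972 and 2036 in CC. The highest UU array, at 1892, was just below the lowest CC array, at 1928, and only UC1 among the UC arrays fell within the UU range.

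Sgce means were 2203 ± 318.5 in UC, 1632 ± 218.2 in UU and 2389.7 ± 453.6 in CC (SD). The difference was -0.53 ± 0.17 between UU and CC (0.692-fold, unadjusted p = 0.00639, adjusted p = 0.172, limma) and 0.42 ± 0.17 between UC and UU (unadjusted p = 0.0237, adjusted p = 0.241). Between UC and CC it was -0.11 ± 0.16 (adjusted p = 0.85). Without the 4 arrays low in epididymal markers the UU to CC difference was -0.35 ± 0.18, with an unadjusted p of 0.0789 in limma.

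Cdkn1c encodes p57Kip2, an inhibitor of cyclin-dependent kinases expressed from the maternal copy (chromosome 7, 143458339 to 143461059). Its signals were 760.4, 649.6, 1044, 866.2 and 1202.5 in UC, 1168, 1079, 712.2 and 822.8 in UU, and 1183, 2547, 707.7, 1616 and 1236 in CC. The 2 highest signals, in CC2 and CC4, both came from arrays low in epididymal markers, while CC3 lay among the lowest of all arrays.

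The Cdkn1c difference was -0.58 ± 0.28 between UC and CC (unadjusted p = 0.0519, adjusted p = 0.546, limma), -0.51 ± 0.29 between UU and CC (adjusted p = 0.394) and -0.07 ± 0.29 between UC and UU (adjusted p = 0.93). Without the 4 arrays low in epididymal markers, it was -0.19 ± 0.27 between UC and CC and -0.12 ± 0.25 between UU and CC. Within UC and CC together, those 4 arrays read 649.6 to 2547 and the other 6 read 707.7 to 1236.

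Plagl1 encodes a zinc finger transcription factor that is known to regulate other imprinted genes (chromosome 10, 13090832 to 13131694). Its bright probe set, 1426208_x_at, ranged over 13473 to 20697 in UC, 10951 to 17762.5 in UU and 10032 to 24865 in CC, with differences of 0.08 ± 0.21, -0.20 ± 0.23 and 0.28 ± 0.23 for UC to CC, UU to CC and UC to UU. The groups overlapped throughout, and the highest signal was again that of CC2. Its second probe set, 1450533_a_at, read 60.9 to 585.8 and fell under the filter.

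Peg3 encodes a paternally expressed zinc finger protein of growth control and cell survival (chromosome 7, 6703892 to 6730462). Its 3 probe sets were all tested. The brightest, 1433924_at, read 7468 to 12052 in UC, 4322 to 9882 in UU and 6119.5 to 14065 in CC, with a UU to CC difference of -0.27 ± 0.29 (adjusted p = 0.646, limma). The dimmest, 1417356_at, read 749 to 1256 in UC, 353.7 to 1249.6 in UU and 730.4 to 2319 in CC, with a UU to CC difference of -0.83 ± 0.36 (unadjusted p = 0.034, adjusted p = 0.277).

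In all 3 Peg3 probe sets the 2 highest CC arrays were CC2 and CC4, both low in epididymal markers. Without the 4 arrays low in those markers, the UU to CC difference of 1417356_at was -0.33 ± 0.35, and without UU replicate 3 it was -0.54 ± 0.35. The middle probe set, 1417355_at, differed by -0.08 ± 0.36 between UU and CC.

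Ndn encodes necdin, a paternally expressed growth suppressor of neurons and of precursor cells (chromosome 7, 62348277 to 62349928). Of its 8 probe sets, 6 were tested, 4 of them of the type that Affymetrix marks as open to cross-hybridization with similar sequences. The other 2 fell under the filter: 1438978_x_at read 327.2 to 885.5 and 1456575_at 167.1 to 794.8 over all arrays. The brightest, 1435382_at, read 5099 to 7093 in UC, 4299 to 6372 in UU and 4141 to 6704 in CC. Its differences were 0.26 ± 0.16 between UC and CC (adjusted p = 0.618, limma) and 0.12 ± 0.17 between UU and CC (adjusted p = 0.747).

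All 6 tested Ndn probe sets had positive UC to CC differences, from 0.21 to 0.77, and 2 of them had an unadjusted p under 0.05. That of 1438939_x_at, 0.21, was -0.06 without UC replicate 5 and -0.11 without UC5 and CC2. The largest was 0.77 ± 0.30 for 1437853_x_at (unadjusted p = 0.0205, adjusted p = 0.507, limma), with signals of 8844, 7261, 4139.5, 9338 and 3668 in UC, 4127, 5742, 8050.5 and 3530.1 in UU, and 2948, 5244, 2561.5, 4209.8 and 3775 in CC. The 3 arrays of high 3′/5′ ratio had the 3 highest of these signals, 8050.5 to 9338, against 2561.5 to 7261 in the other 11. With the ratio as a covariate the difference was 0.38 ± 0.28, with an unadjusted p of 0.191 in limma, and without UC5 and CC2 it was 1.09 ± 0.29.

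The Ndn probe sets did not share a sign between UU and CC. The difference was 0.69 ± 0.29 for 1438939_x_at (unadjusted p = 0.0314, adjusted p = 0.269, limma) and -0.20 ± 0.19 for 1415923_at (adjusted p = 0.615). Between UC and UU, 1415923_at differed by 0.48 ± 0.19 (unadjusted p = 0.025, adjusted p = 0.245), with 3189 to 5722 in UC against 2425 to 4385 in UU.

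**Figure D2:**
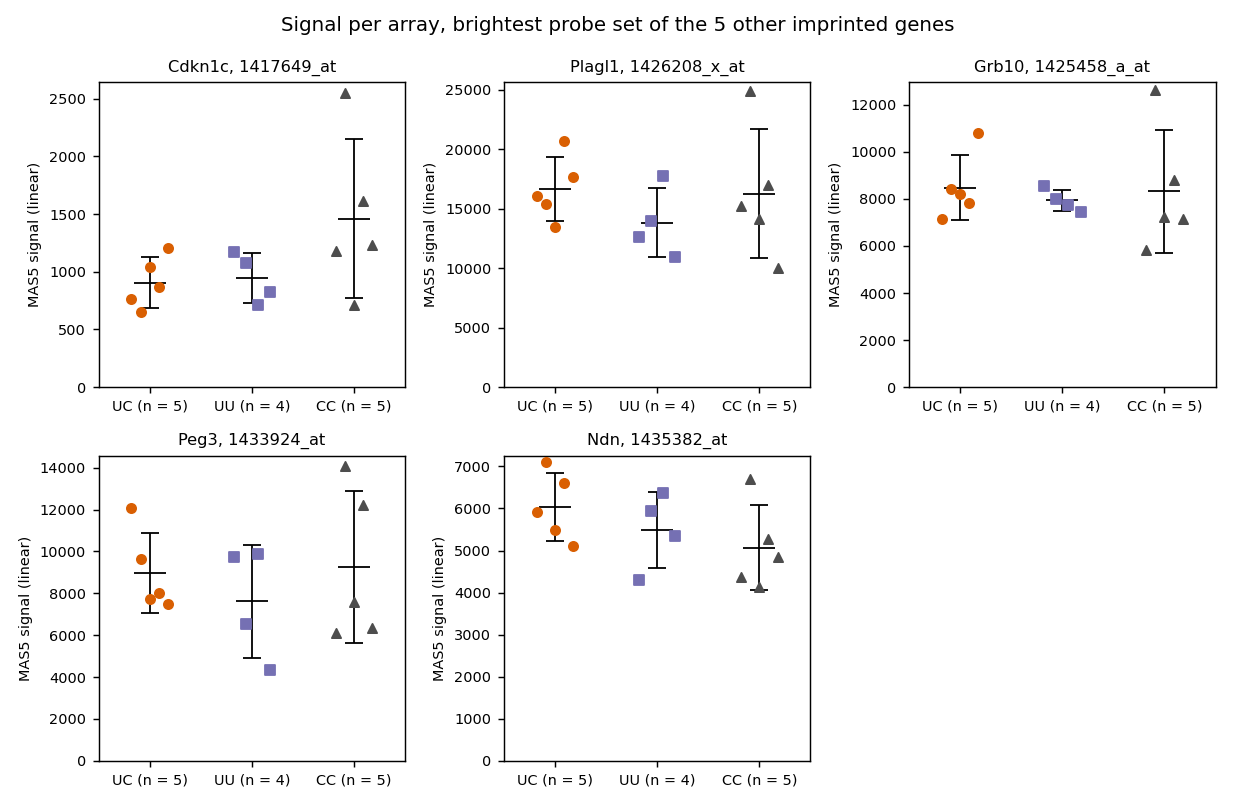
Signal (linear MAS5 scale) of the brightest probe set of Cdkn1c, Plagl1, Grb10, Peg3 and Ndn in each array, with UC, UU and CC side by side. Points are arrays and bars are the mean ± SD; the groups overlap in every panel, and CC2 is the highest CC array in each.

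**Figure D3:**
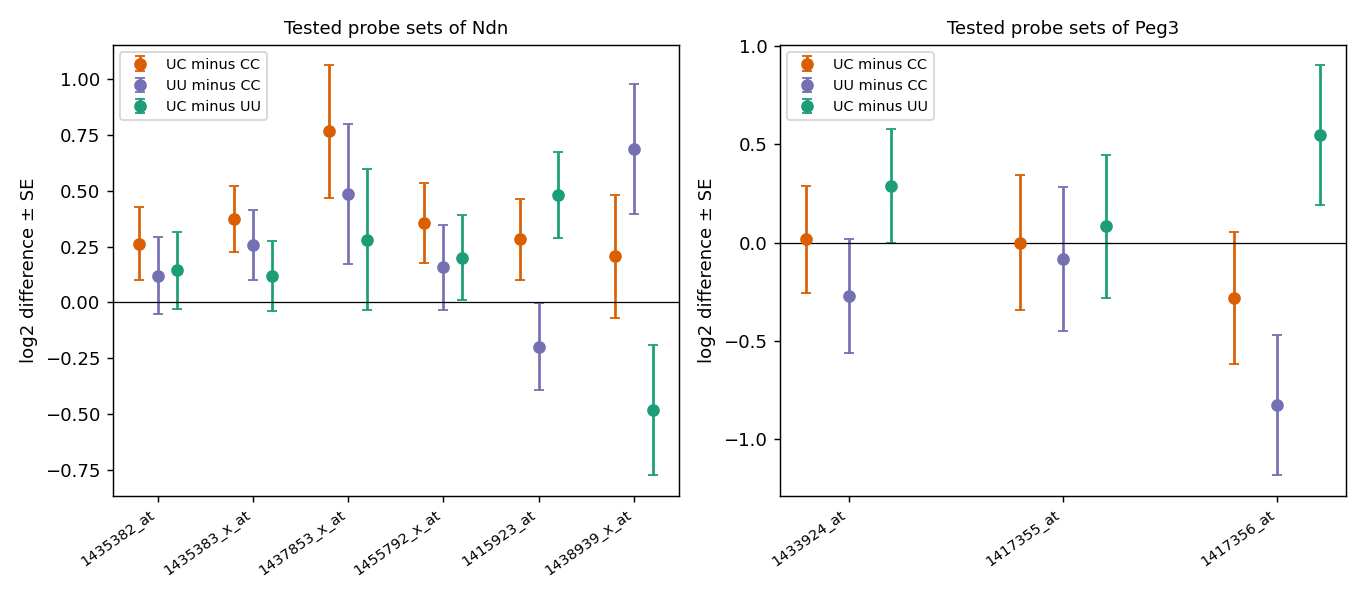
Log2 difference ± SE of each tested probe set of Ndn and Peg3 in the comparisons UC minus CC, UU minus CC and UC minus UU. Probe sets of the same gene do not all share a sign, as with the UU to CC differences of 1415923_at (-0.20) and 1438939_x_at (0.69) of Ndn.

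Over the 18 tested member probe sets, 7 had an unadjusted p under 0.05 between UU and CC, which was 38.9% of them, against 16.0% of all 13576 tested probe sets. The 4 higher in UU, against 7.90% of all tested probe sets, were those of H19, Dlk1 and Igf2 and 1 of Ndn, and the 3 lower, against 8.05%, were those of Gnas and Sgce and 1 of Peg3. Groups did not overlap for 4 of 18 (22.2%), against 7.77% of all tested probe sets: 2 were higher in UU, against 4.17%, and 2 lower, against 3.60%. The median member difference was 0.05 on the log2 scale, beside 0.04 over all probe sets. The members were chosen with earlier results of these data known, so member shares above those of all probe sets are not independent evidence. The 18 are not independent of each other either, as 6 are of Ndn and 3 of Peg3. By the brightest probe set of each of the 10 genes, 3 were higher and 2 lower between UU and CC at an unadjusted p under 0.05.

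Between UC and UU, 5 of 18 members (27.8%) had an unadjusted p under 0.05, against 16.2% of all tested probe sets. Those of H19, Dlk1 and Grb10 1430164_a_at were lower in UC, against 8.45% of all tested probe sets, and those of Sgce and Ndn 1415923_at were higher, against 7.75%. None of the 18 had separate UC and UU ranges, against 5.46% of all tested probe sets, and none passed the adjusted threshold, which 60 of 13576 probe sets (0.442%) passed. Over the alternatives, 1315 to 2897 of all probe sets had an unadjusted p under 0.05, against 2199 in the reported fit. With each array left out, that number ran from 1476 (without UC replicate 2) to 2577 (without UC replicate 3). Changes of the member count therefore stand beside changes over all probe sets. The member count of 5 was 2 without UC replicate 2 or without UU replicate 4, and 3 without UU replicate 1. The same count was 3 with the epididymal level in the model and 2 with the liver level in the model. With 1 probe set per gene it was 3, of 10 genes rather than 18 probe sets.

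Between UC and CC, 2 of 18 members, both Ndn probe sets, had an unadjusted p under 0.05 (11.1%), against 9.23% of all tested probe sets. None of the 18 had separate ranges, against 1.84% of all tested probe sets, and no tested probe set passed the adjusted threshold (limma). Over the alternatives, 622 to 2005 of all probe sets had an unadjusted p under 0.05, against 1253 in the reported fit. With each array left out, that number ran from 768 (without UC replicate 4) to 1636 (without UC replicate 3). With each array left out, the member count of 2 ran from 0 without UC replicate 4 to 6 without UC replicate 5. It was 6 without UC5 and CC2, 5 with array weights, and 4 without UC replicate 3, without CC replicate 2, without the 4 arrays low in epididymal markers, with the epididymal level as a covariate or without the 2 arrays high in muscle markers. It was 1 without UC replicate 1, without CC replicate 1 or with the liver level as a covariate, and 0 with the 3′/5′ ratio in the model. Of 10 genes rather than 18 probe sets, it was 1 with the mean of a gene's probe sets and 0 with 1 probe set per gene.

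The UU to CC count of 7 was 4 without UU replicate 3, without UU replicate 4, without the 2 arrays high in muscle markers or with the 3′/5′ ratio in the model, and 3 with the mean of a gene's probe sets.

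**Figure D4:**
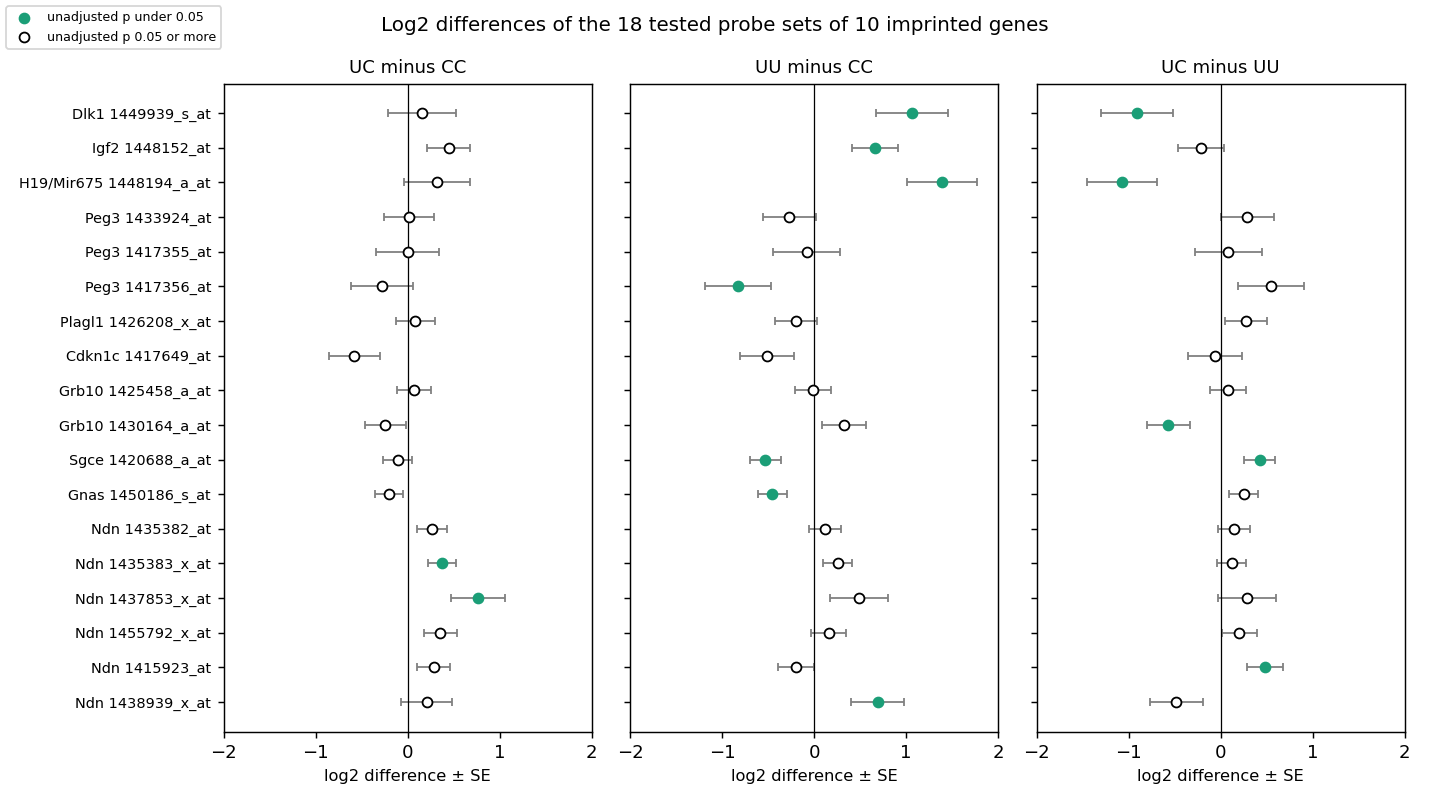
Log2 difference ± SE (limma) of the 18 tested probe sets for UC minus CC, UU minus CC and UC minus UU. Filled points have an unadjusted p under 0.05: 2 for UC minus CC, 7 for UU minus CC and 5 for UC minus UU, and none has an adjusted p under 0.05.

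Levels of several cell type markers differed alongside the UU group. The mean log2 level of 9 of 12 adipocyte markers was 13.12 to 13.85 in UU against 13.85 to 14.73 in CC, that of 6 of 10 macrophage markers was 10.32 to 11.49 against 11.53 to 13.08, and that of 9 of 10 endothelial markers was 10.03 to 10.51 against 10.58 to 11.34. Liver markers (7 tested of 13) stood at 9.31 to 9.63 in UU against 8.05 to 8.97 in CC, and at 8.77 to 12.74 in UC, highest in UC2. Exact permutation p-values (two-sided) for UU against CC were 0.0317, 0.0159, 0.0159 and 0.0159, and none was under 0.05 after adjustment over 33 tests. Markers of stromal fibroblasts and preadipocytes, the cells known for Dlk1, were at 12.51 to 12.74 in UU against 12.68 to 13.15 in CC (exact permutation p = 0.0635). With the liver level as a covariate, the UU to CC differences were 1.66 for H19, 1.34 for Dlk1, 0.67 for Igf2, -0.41 for Sgce and -0.37 for Gnas. The part of the adipocyte, macrophage, endothelial and stromal levels in the member values was not tested, and in bulk tissue fewer cells of a type and less RNA per cell cannot be told apart.

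Across the 14 arrays the brightest probe sets of the 10 genes formed 45 pairs. Igf2 and Gnas ran opposite to each other (Pearson r = -0.81, Spearman rho = -0.83, permutation p = 0.00022 and 0.00035, adjusted over 45 pairs 0.0099 and 0.0157). Without the 2 arrays farthest from the median Igf2 level r was -0.80, after centring within groups it was -0.70, and in the 11 arrays without a high 3′/5′ ratio it was -0.79. Dlk1 and H19 ran together (r = 0.75, rho = 0.76, permutation p = 0.00217 and 0.00219, adjusted 0.0488 and 0.0493).

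For Dlk1 and H19, r was 0.78 without the 2 arrays farthest from the median Dlk1 level, 0.58 after centring within groups, and 0.74 in the 10 arrays with high epididymal markers. The remaining 43 pairs did not pass adjustment, the next being Sgce with Gnas (r = 0.70, adjusted permutation p = 0.0618). All points of a pair share the array and its scaling. The permutations moved arrays freely across the groups, so their p-values also take in differences between groups. The values of r after centring within groups were not tested.

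**Figure D5:**
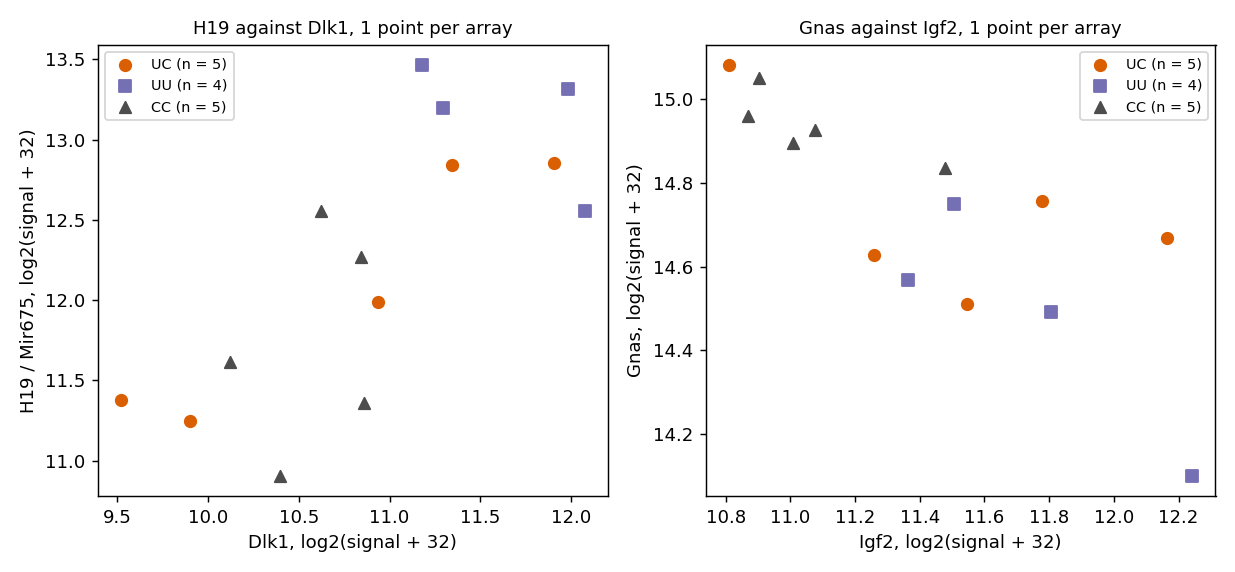
Left, log2(signal + 32) of H19/Mir675 against Dlk1; right, Gnas against Igf2, with 1 point per array marked by group. H19 is high where Dlk1 is high (r = 0.75), and Gnas is low where Igf2 is high (r = -0.81).

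Among 8272 genes that are not members, those most like the mean standardised profile of the 10 genes over the 14 arrays were Cdk14 (Pearson r = 0.85), Wipf1 (0.81), Nsg1 (0.80), Pdk4 (0.80) and Sipa1l2 (0.79). The genes most like single members were Ift88 for Dlk1 (r = 0.86), Nfatc2ip for Igf2 (0.91), Nfxl1 for H19 (0.90), St3gal2 for Gnas (0.93) and Pcyt1a for Sgce (0.88). With so many genes and 14 arrays, such values describe these arrays only.

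Of 65 other imprinted genes listed, 48 were on the array and 30 were tested. Mest, a paternally expressed hydrolase of the same network, averaged 16357 ± 2589 in UC, 3444 ± 1435 in UU and 17848 ± 9437 in CC (SD), and its UC to UU difference of 2.32 ± 0.38 was the only one to pass (adjusted p = 0.0317, limma). Meg3, the maternally expressed RNA of the Dlk1 locus, differed by 0.22 ± 0.34 between UU and CC, unlike Dlk1 at 1.06. Gab1, a docking protein of growth factor receptors, differed by 1.01 ± 0.26 between UU and CC (adjusted p = 0.13). The median of the 30 was 0.00 between UU and CC, with 2 higher and 3 lower at an unadjusted p under 0.05. The shares over all tested probe sets were 7.90% and 8.05%.

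The IGF axis around Igf2 had 14 tested genes of 20, none of them called. Between UU and CC 5 were lower and none higher at an unadjusted p under 0.05, against 8.05% and 7.90% of all tested probe sets. Differences were -0.59 ± 0.20 for Htra1, a protease that cleaves IGF binding proteins, and -1.17 ± 0.40 for Igfbp5, such a binding protein (adjusted p = 0.189 and 0.192, limma). Between UC and UU 6 were higher and 1 lower, against 7.75% and 8.45% of all tested probe sets. Among the higher were Htra1 (0.77 ± 0.20) and the growth hormone receptor Ghr (0.88 ± 0.24). The part of the adipocyte marker levels in these values was not tested.

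Among 15 tested Notch pathway genes and Dlk1 partners, none was called. Fibronectin, Fn1, a known binding partner of Dlk1, differed by -1.37 ± 0.30 between UU and CC (adjusted p = 0.107, limma), and Notch4 by -0.88 ± 0.34 (adjusted p = 0.23). The list's median between UU and CC was 0.09.

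Of the dystroglycan and sarcoglycan complex, to which the Sgce protein belongs, 7 of 13 genes were tested and none was called. Sspn, which encodes sarcospan, differed by -0.61 ± 0.18 and Dmd, which encodes dystrophin, by 0.59 ± 0.22 between UU and CC (adjusted p = 0.162 and 0.219, limma), and the list's median was -0.40. Of 16 tested cell cycle inhibitors, cyclins and kinases around Cdkn1c, none was called. Cdkn1a, the p21 relative of Cdkn1c, differed by 1.08 ± 0.22 between UC and CC and by 0.73 ± 0.23 between UU and CC (adjusted p = 0.41 and 0.172), in the opposite direction to Cdkn1c.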

How the data were processed

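RNA of epididymal fat from 14 mice was measured on Affymetrix arrays, grouped by the assignment that the labels give. The values used are deposited intensity signals, not log-transformed; the submitters' processing notes name GCOS 1.3 and MAS5. After 2% was trimmed at each end, the mean signal per array was 1500.45 to 1500.57. Detection calls, scan dates and litters were not used here. The members and the gene lists were chosen with earlier results of these data known.

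Values were transformed as log2(signal + 32), and the dimmest 40% of probe sets by mean over all arrays (signal under 493.6) were left out, leaving 13576 of 22626 that are not controls. All arrays entered 1 model in limma 3.58.1 (run in R 4.3.3, with empirical Bayes and a trend, on 11 residual degrees of freedom) with 3 two-sided contrasts, adjusted by Benjamini-Hochberg over all tested probe sets, and the fit was tested on simulated data. A difference ± SE is the limma coefficient with its moderated standard error. Marker levels were tested between groups by exact permutation in scipy 1.17.1. Correlations between members were tested with 100000 random permutations of the arrays. Figures were drawn with matplotlib 3.10.9.

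The genes named were every member with all its probe sets, Mest and Meg3, up to 2 genes of smallest p from each list in a comparison described, and the genes most correlated with the members. Symbols came from the platform annotation (1 symbol for 20380 probe sets, several for 691, none for 1555), updated through a RefSeq table. Sequences and positions are those of RefSeq on GRCm38.p6, and promoter windows were given for 7 of the 10 members, not for H19, Cdkn1c or Sgce. Alternatives covered the pseudocount, filter, scaling, probe set rule, variance model, array weights, fits of 2 groups, a replicate block, each array left out, arrays standing apart left out and marker levels or the 3′/5′ ratio as covariates. Fits without the 2 arrays high in muscle markers, without the 6 low in epididymal or high in muscle markers, and with the liver level as covariate were chosen after seeing the data.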

Additional observations from a re-analysis of the deposited data

Results flagged for a closer look

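In 78 groups of 4 or 5 arrays (26 probe sets in 3 groups), 3 single arrays stood far from the others of their group by Dixon's ratio, and chance flags about 1 in 20 groups, which is 3.9 of 78. The Peg3 probe set 1417355_at read 11969.1 in UU1, against 4881 to 5234.6 in the other 3 UU arrays. The Grb10 probe set 1425457_a_at, which is under the signal filter, read 56.4 in UC1, against 326.7 to 442.8 in the other 4 UC arrays. The Ndn probe set 1415923_at read 4470.3 in CC2, one of the arrays high in skeletal muscle markers and low in epididymal markers, against 3350.3 to 3637.5 in the other 4 CC arrays.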

How the results depend on the processing

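No member passed the adjusted threshold under any of 34 alternatives in the 3 comparisons (102 counts, all 0), and the smallest adjusted p of a member was 0.0924 (limma, H19, UU to CC, array weights). Of 54 member differences, 34 kept their sign under every alternative. The member differences with an unadjusted p under 0.05 that moved by over 1.5 times and are not given above were those of Ndn 1435383_x_at for UC to CC (0.23 with the 3′/5′ ratio in the model), of Ndn 1437853_x_at for UC to CC (1.19 without the 4 arrays low in epididymal markers, 1.34 without the 6 low in epididymal or high in muscle markers, 0.46 with the liver level) and of Peg3 1417356_at for UU to CC (-0.51 with array weights, -0.44 without the 6 arrays). The cause was not tested.

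Over all probe sets, the UC to CC count called was 1 without the 4 arrays low in epididymal markers, against 0. The UU to CC count, 0 in the reported fit, was 27 with array weights, 5 with the epididymal level as a covariate, 1 with no variance trend, without UC5 and CC2, the arrays with Xist, without the 4 low in epididymal markers, with the muscle level as a covariate or without the 2 arrays high in muscle markers, and 0 to 2 with each array left out. The UC to UU count of 60 was 140 with the 3′/5′ ratio in the model, 131 with median centring, 28 with the muscle level, 27 without the 2 arrays high in muscle markers, 16 with no filter, 1 with only those groups fitted, without UC5 and CC2 or without the 4 low in epididymal markers, and 0 with no variance trend, with the epididymal or liver level, or without the 6 arrays. With each array left out it ran from 0 to 109, and only leaving out CC2 (48) moved it by less than 1.5 times.

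Deviations of 13 pairs of arrays with the same replicate number correlated at -0.272 to 0.395 (median 0.058). The 52 pairs of unlike number correlated at -0.529 to 0.456 (median -0.028), and 2 of 14 arrays correlated best with their own number. Arrays also differed in epididymal and muscle markers, so this check cannot tell whether the numbers pair the samples. With the number as a replicate block the counts called were 0, 5 and 77 for UC to CC, UU to CC and UC to UU, and no member was called. Dim signal limits the 8 member probe sets under the filter.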

Other observations

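Of 25 matrix genes listed, 24 were tested. Between UU and CC, 11 had lower values and none higher at an unadjusted p under 0.05, against 8.05% and 7.90% of all tested probe sets. The median difference was -0.50. Between UC and UU 12 were higher and none lower, against 7.75% and 8.45% of all tested probe sets, with a median of 0.48. None was called in limma: Col6a3, a chain of collagen VI, differed by -0.77 ± 0.16 between UU and CC and by 0.72 ± 0.16 between UC and UU (adjusted p = 0.102 and 0.063). Of 13 tested genes of Gs alpha signalling beside Gnas, 1 was higher and none lower between UU and CC at an unadjusted p under 0.05. The shares over all tested probe sets were 7.90% and 8.05%. The higher gene was Adcy7, an adenylyl cyclase, at 0.55 ± 0.26 (adjusted p = 0.311, limma). Between UC and CC, 3 of the 13 were lower and none higher, against 5.10% and 4.13% of all tested probe sets. Among the lower were Gnb1, which encodes a G protein beta subunit, and Prkaca, at -0.80 ± 0.27 and -0.475 ± 0.188 (adjusted p = 0.486 and 0.51, limma). Of 14 tested genes of insulin receptor signalling beside Grb10, 3 were lower and none higher between UU and CC at an unadjusted p under 0.05. The shares over all tested probe sets were 8.05% and 7.90%. Among the lower was Nedd4, a ubiquitin ligase known to bind Grb10, at -0.56 ± 0.26 (adjusted p = 0.3, limma). The marker levels of adipocytes, macrophages and endothelium given with the results were lower in UU in the same arrays, and their part in these values was not tested.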
